A study of Rattus norvegicus with 4 samples.

Results

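The genes described here are 9 genes for proteins with which myeloid cells restrain or steer T cells. They were chosen by name, as the probes other than controls whose gene name in the array files is Cd274, Pdcd1lg2, Cd80, Cd86, Il10, Tgfb1, Ido1, Havcr2 or Vegfa. They had 12 probes, and all 9 genes were found. Of them 7 entered the test across 12858 genes, and the other two, Cd80 and Ido1, were too dim to be tested.

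The arrays measured RNA of spleen cells from male WKAH rats aged 8 to 12 weeks, taken 24 h after an injection of liposomes, which are small lipid vesicles, or of saline. Cells that carry MHC class II, the molecule that presents antigen to helper T cells, were removed with magnetic beads, and cells that carry CD11b/c, an integrin of myeloid cells, were then kept. The title of the study calls this fraction splenic macrophages. There were 2 one-colour arrays per group, named saline 1, saline 2, liposome 1 and liposome 2 by the numbers in their titles, and all came from the same strain and the same enrichment. What the liposomes were made of, and their dose, the sources used here do not give. The labels do not tie the arrays to different rats. A p-value here therefore measures just the scatter among these 4 samples, part or all of which may be technical.

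The B7 family ligands Cd80 and Cd86 costimulate T cells through CD28 and restrain them through CTLA-4, while PD-L1 (Cd274) and PD-L2 (Pdcd1lg2) bind the inhibitory receptor PD-1. Macrophages also restrain T cells by secreting IL-10 and TGF-beta 1, and by breaking down tryptophan with IDO1. TIM-3, the product of Havcr2, is an inhibitory receptor of T cells that myeloid cells carry too, and VEGF-A drives vessel growth and is counted among the immunosuppressive factors of myeloid cells.

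The results turn on Cd274 and Vegfa, which differed most between the groups among the members that were tested, so sequences of their probes are shown: that of Cd274, and for Vegfa 1 that gave a signal and 1 that stayed near background, for contrast. Each is a probe of 60 bases from the array files, printed in lower case because no part of it is singled out. The Cd274 probe lies at chr1:233061619-233061678 of the rat build rn4. Of the 4 Vegfa probes, counted in order along the chromosome, the second lies at chr9:10528551-10528610 and the third at chr9:10531972-10532031, all on the plus strand. The first, and the last at chr9:10535933-10535992, are described below without their sequences. Exons and introns are not named, as no gene annotation of that build was used here. Each of the 3 printed sequences reads in 1 of 3 forward frames without a stop codon.

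Cd274: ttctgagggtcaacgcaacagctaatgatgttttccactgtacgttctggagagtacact

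Vegfa, the second probe: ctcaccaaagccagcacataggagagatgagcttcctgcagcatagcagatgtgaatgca

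Vegfa, the third probe: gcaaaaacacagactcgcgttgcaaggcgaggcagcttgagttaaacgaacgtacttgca

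None of the 7 tested members passed the threshold, a Benjamini-Hochberg adjusted p of 0.05 by limma over all genes, where 8.89% of the 12858 genes passed, 4.83% higher and 4.06% lower on the liposome arrays. At an unadjusted p under 0.05, 3 of the 7 members passed (Cd274, Pdcd1lg2 and Vegfa), against 32.5% of all genes. The 2 groups of arrays did not overlap for 5 of the 7, a share to be read against 65.5% of all genes. Cd274, Pdcd1lg2 and Havcr2 lay higher on both liposome arrays (30.4% of all genes did) and Il10 and Vegfa lower on both (35.1% of all genes). For Cd86 and Tgfb1 the groups overlapped. The median log2 fold change, liposome minus saline, was 0.01 over the 7 members and -0.04 over all genes, and the median size of the change, regardless of sign, was 0.36 over the members and 0.25 over all genes. With so few arrays, permuting the labels exactly could not reach the threshold, so no such test was used.

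**Figure D1:**
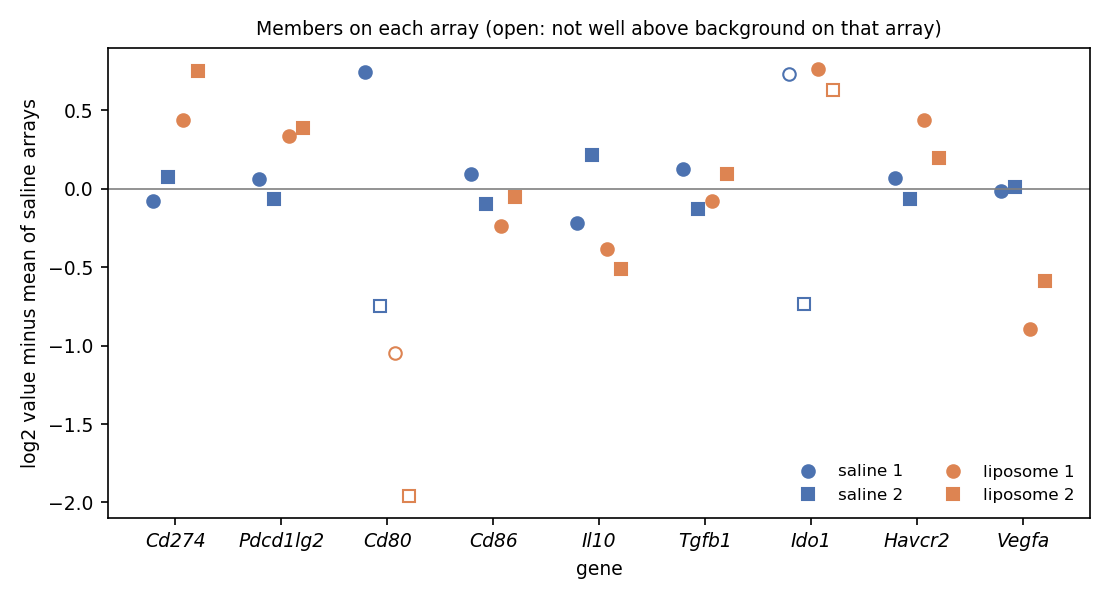
Each point is 1 array, and the vertical axis is the log2 intensity of a gene minus its mean over the 2 saline arrays; open points are values not well above background. Both liposome arrays lie above both saline arrays for Cd274, Pdcd1lg2 and Havcr2 and below them for Il10 and Vegfa, while the groups overlap for Cd86, Tgfb1 and Ido1, and Cd80 is well above background on saline 1 alone.

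Among the inhibitory ligands, Cd274, which encodes PD-L1, had processed intensities of 881 and 1011 on saline 1 and saline 2 and of 1428 and 1706 on liposome 1 and liposome 2. Both liposome arrays were brighter than both saline arrays. On the log2 scale, relative to the 75th percentile of each array, the values were -0.13 and 0.03 in saline and 0.39 and 0.70 after liposomes. The difference was 0.59 ± 0.15 log2 units (SE, n = 2 arrays per group), or 1.51-fold, and did not pass (limma adjusted p = 0.082). A larger change, up or down, was measured for 18.1% of all genes.

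Pdcd1lg2, which encodes PD-L2, is the neighbour of Cd274 in the genome. Their probes lie 77.2 kb apart on chromosome 1 of rn4, and the RefSeq gene table of GRCr8 lists 0 protein-coding genes between them. Pdcd1lg2 (probe at chr1:233138865-233138924) was dimmer in the scan, at 157 and 149 on the saline arrays and 215 and 216 on the liposome arrays. Like its neighbour it was brighter on both liposome arrays, and the 2 arrays within each group lay close together. The difference was 0.36 ± 0.10 log2 units, or 1.28-fold, and did not pass (limma adjusted p = 0.102).

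Havcr2 (probe at chr10:31608922-31608981), the gene of TIM-3, had intensities of 110 and 103 on the saline arrays and 161 and 131 on the liposome arrays. The liposome arrays were again the brighter ones, with liposome 1 the highest. The difference of 0.32 ± 0.13 log2 units did not pass (limma adjusted p = 0.188). Lgals9, the gene of galectin-9, a TIM-3 ligand named here for its role and outside the naming rule, had a log2 fold change of -0.42 ± 0.20 (limma adjusted p = 0.232).

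The costimulatory ligands gave no call. Cd86 (probe at chr11:66228898-66228957, minus strand) had intensities of 332 and 300 on the saline arrays and 299 and 327 on the liposome arrays, so the groups overlapped. Its log2 fold change was -0.15 ± 0.13 (limma adjusted p = 0.479). Cd80 (probe at chr11:64045405-64045464, minus strand) was well above background on saline 1 alone, at an intensity of 85.1, and was at 31.2 on saline 2, 27.9 on liposome 1 and 14.2 on liposome 2. Against the value on each liposome array or, where higher, the dimmest signal that counted there as well above background, the saline mean was at least 1.62-fold higher, with only 1 of 2 saline arrays measured, and no test was made. This bound rests on saline 1: without it no fold can be given, and without saline 2 the bound is 2.72-fold.

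Beside these values, the markers of dendritic cells and B cells, which carry Cd80 and Cd86 and most of which the MHC class II beads should remove, were lower on the liposome arrays. Of 12 dendritic cell markers 9 were tested, all 9 lay lower and 4 fell, and their summed level, in multiples of the array's 75th percentile, was 28.0 to 38.6 in saline and 20.8 to 26.5 after liposomes. Cd83, the brightest of the 9, weighs most in this sum, and its groups overlapped (log2 fold change -0.22). The median log2 fold change of the 9 was -0.88. The dendritic cell genes Zbtb46, Xcr1 and Itgae were not well above background on any array. Of 12 B and plasma cell markers 11 were tested, all 11 lay lower and 0 passed, with a summed level of 60.7 to 62.5 in saline and 34.0 to 43.8 after liposomes. Their part in the values of Cd80 and Cd86 was not tested, and in bulk samples fewer cells of a type and less RNA per cell cannot be told apart.

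Of the secreted factors, Il10 (probe at chr13:43957707-43957766) had intensities of 543 and 755 on the saline arrays and 546 and 483 on the liposome arrays. After scaling to each array's 75th percentile, the log2 values were -0.83 and -0.40 in saline and -0.998 and -1.12 after liposomes. Both liposome values were the lower ones, yet the saline arrays differed from each other by more than saline 1 differed from either liposome array. The log2 fold change of -0.45 ± 0.18 did not pass (limma adjusted p = 0.174), and it was -0.234 without saline 2 and -0.665 without saline 1.

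Tgfb1 (probe at chr1:80910123-80910182) was printed in 10 spots on each array, which gives the scatter within an array. The log2 values of the 10 spots had an SD of 0.07 on both saline arrays, 0.08 on liposome 1 and 0.09 on liposome 2. The spot means were 2683 and 2316 on the saline arrays and 2632 and 2865 on the liposome arrays. The groups overlapped, and the log2 fold change was 0.01 ± 0.14 (limma adjusted p = 0.976). Its sign turned with quantile normalization (-0.01), without saline 2 (-0.12) and without liposome 2 (-0.08), so no direction is given.

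Ido1 (probe at chr16:71878309-71878368), the gene of the enzyme that starts the breakdown of tryptophan, was close to background throughout. It had intensities of 29.0 and 10.8 on the saline arrays and 33.6 and 29.5 on the liposome arrays, and was well above background on liposome 1 alone. No fold is given, since the liposome mean lay below the dimmest signal that counted as well above background on the saline arrays.

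Vegfa was lower on the liposome arrays at each of its 3 probes that could be measured. The brightest, the last along the chromosome, had intensities of 1456 and 1526 on the saline arrays and 897 and 1067 on the liposome arrays. The saline arrays lay within 0.02 log2 units of each other (0.60 and 0.62), and the liposome arrays at -0.28 and 0.02. The difference was -0.74 ± 0.14 log2 units, a level 1.67-fold lower, and just missed the threshold (limma adjusted p = 0.0525). A larger change in either direction was measured for 12.0% of all genes.

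The first probe had 256 and 272 in saline against 156 and 195 after liposomes, 1.66-fold lower. The second had 579 and 690 against 372 and 419, 1.76-fold lower. When every probe was fitted on its own, the adjusted p by limma was 0.0717 for the first, 0.051 for the second and 0.0582 for the last. The third probe was not well above background on any array, with intensities of 12.2 to 26.5, so it gives no fold. The probes share their samples and their gene, so they are not replicates of one another.

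**Figure D2:**
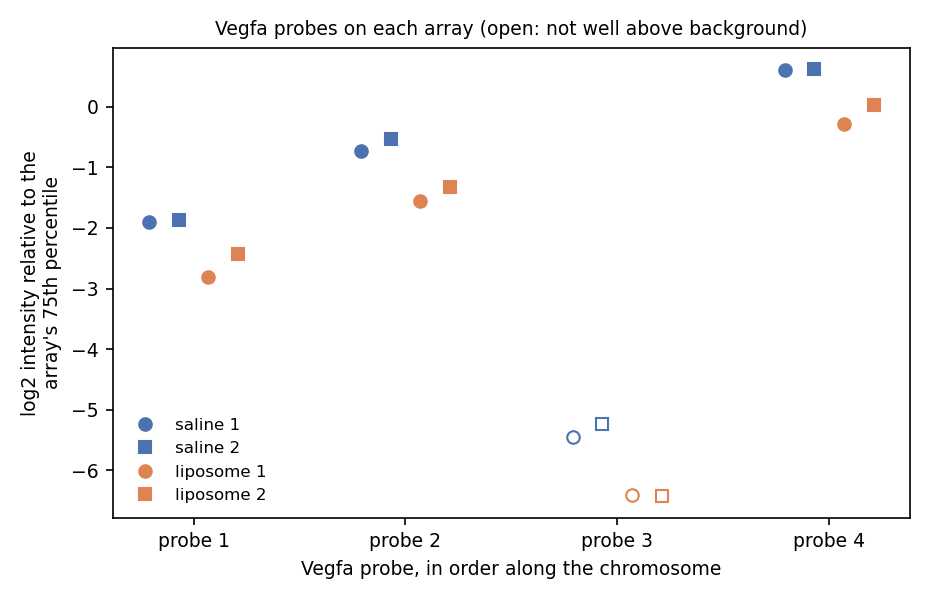
The log2 intensity of the 4 Vegfa probes, relative to the 75th percentile of each array, is plotted for each of the 4 arrays, with open points where a probe was not well above background. At all but the third probe both liposome arrays lie below both saline arrays, and the third is near background on all 4.

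Vegfa lay on either side of the threshold depending on the processing. Its adjusted p by limma was 0.0302 with normexp background correction, 0.0447 when only probes well above background on all arrays were tested, and 0.0497 when probes named only by an accession were left out, an alternative chosen after seeing the data. It was 0.0635 with median scaling and 0.287 without the filter on dim probes. Over all 13 alternatives the log2 fold change ran from -0.89 to -0.59. For Cd274 it ran from 0.44 to 0.75, for Pdcd1lg2 from 0.24 to 0.44, for Havcr2 from 0.181 to 0.435, for Il10 from -0.665 to -0.234 and for Cd86 from -0.24 to -0.05.

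**Figure D3:**
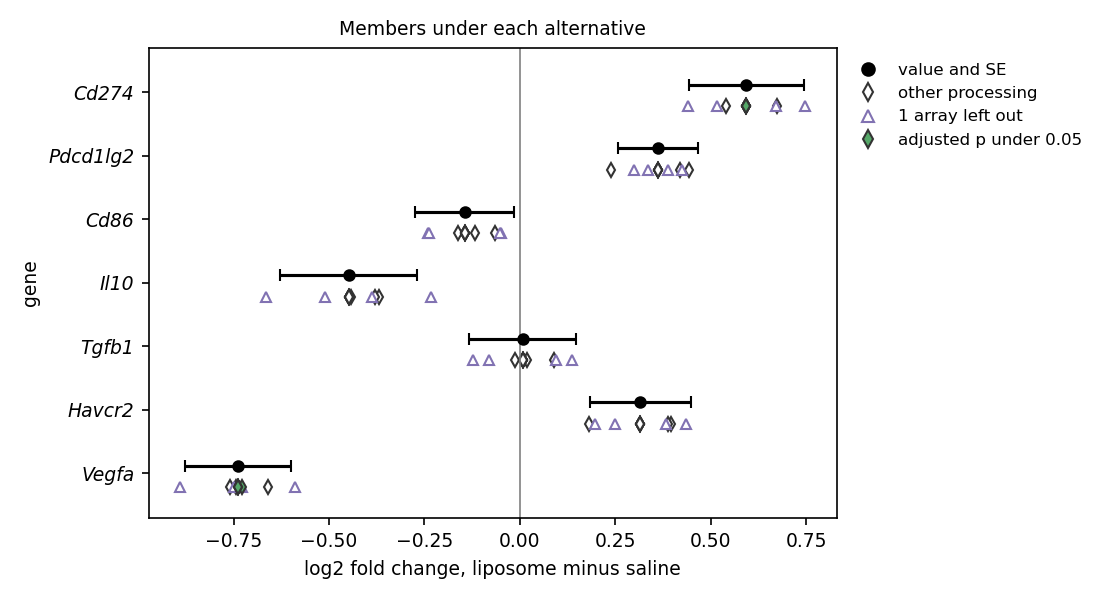
For each tested member the black point and bar give the log2 fold change and its SE, and the marks beneath give the value under each alternative, with triangles for 1 array left out, diamonds for other processing and green where the adjusted p was under 0.05. Vegfa stays below 0 and Cd274, Pdcd1lg2 and Havcr2 above 0 in all of them, while Tgfb1 lies on both sides.

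By a rule for likeness, the genes outside the 9 whose 4 centred log2 values lay nearest to those of each member were found among 12161 genes well above background on all arrays. For Vegfa they were Btg2, an antiproliferative gene, and Myadm, at root mean square distances of 0.01 and 0.02 log2 units and with log2 fold changes of -0.75 and -0.70. For Cd274 they were LOC503175 and the glycosyltransferase gene Galnt10, at 0.03 and 0.04, with log2 fold changes of 0.66 and 0.68. The nearest to Pdcd1lg2 were a transcript named only as ENSRNOT00000034533 (0.006) and Pik3r5, a regulatory subunit of a PI3 kinase (0.012). Cops7a (0.013) and Brd7 (0.019) were nearest to Havcr2, and Tmlhe (0.02) and Plk1s1 (0.023) to Il10. For Cd86 they were LOC100360337 and Erich4 (both 0.01), and for Tgfb1 Atg7 (0.01), a gene of autophagy, and Rbm33 (0.012). With 4 arrays many genes come this close: 45 lay within 0.1 log2 units of Cd274, 115 of Vegfa and 1138 of Pdcd1lg2.

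Calls were found among other ligands of the same kind. The counts of calls in this list and the lists that follow are to be read against the 8.89% of all genes that passed. In a list of 22 further B7 and checkpoint ligands, 14 were tested, 2 rose, 1 fell and 11 did not pass. Cd200, whose product restrains myeloid cells through the receptor CD200R, had intensities of 729 and 721 on the saline arrays and 5985 and 5424 on the liposome arrays. It rose by 2.84 ± 0.10 log2 units, or 7.17-fold (limma adjusted p = 0.00752, probe at chr11:56973888-56973947), and a second Cd200 probe gave 7.42-fold. Cd276, the gene of B7-H3, went from 339 and 242 to 2042 and 1876. It rose by 2.64 ± 0.21 log2 units, or 6.23-fold (limma adjusted p = 0.0137). Btn2a2, a butyrophilin that inhibits T cells, fell 1.89-fold (limma adjusted p = 0.0298). It was well above background on only 1 of 2 liposome arrays, and its adjusted p was 0.0682 under quantile scaling, 0.0723 with normexp (a log2 fold change of -0.42 in place of -0.92), 0.0534 without saline 1 and 0.0617 without saline 2. Without either liposome array limma passed 0 of all 12858 genes, so each call in this and the following paragraphs was lost there. Without saline 1 or saline 2 Cd200 and Cd276 were still called (adjusted p = 0.029 and 0.0337 for both genes).

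Receptors of the ligands showed no call in the fit without a replicate block. Of 16 receptors 11 were tested and 0 passed by limma. With the block 1 was called lower, Cd96, which entered the test through the saline arrays only, so the call is not read further. Cd96 was not well above background on either liposome array, so only a bound is given, a saline mean at least 2.28-fold higher. Pdcd1, the gene of PD-1, was not well above background on any array. Ctla4, the inhibitory receptor for CD80 and CD86, named for its role, had log2 values of -3.73 and -2.44 in saline and -3.49 and -2.76 after liposomes. The arrays numbered 2 were the higher in both groups. Of 10 tested T cell markers 7 were also higher on the arrays numbered 2 in both groups, 2 were lower there in both, and 0 passed by limma. The summed level of the T cell markers was 15.9 on saline 1, 34.6 on saline 2, 16.2 on liposome 1 and 28.6 on liposome 2. Cd200r1, the receptor for CD200, had a log2 fold change of 0.32 ± 0.09 (limma adjusted p = 0.105).

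In the IL-10 list of receptors, signal carriers and related cytokines, 12 of 15 genes were tested, 3 rose, 0 fell and 9 did not pass. Maf, a transcription factor gene that drives Il10 transcription in macrophages and T cells, went from intensities of 324 and 295 to 1341 and 1136. It rose by 1.86 ± 0.13 log2 units, or 3.64-fold (limma adjusted p = 0.0112). Ebi3, a subunit that IL-27 and IL-35 share, rose 2.07-fold (limma adjusted p = 0.0343), and Il10rb, a chain of the IL-10 receptor, 1.58-fold (limma adjusted p = 0.0429). Leaving out saline 1 or saline 2 ended the calls of Ebi3 (0.0829 and 0.0769) and Il10rb (0.0728 and 0.0788) but not that of Maf (0.0376 and 0.0423). Il12b, a subunit of IL-12 and IL-23, lay at -1.95 log2 units without saline 1 and at -3.97 without saline 2. It was not well above background on either liposome array. In those fits only the liposome pair gave a scatter within a group, so no call is read from them for Il12b. The ligand-binding chain Il10ra, named for its role, lay at -0.36 ± 0.21 (limma adjusted p = 0.29). On the same arrays Il10 itself lay lower but did not pass, as given above.

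Of 24 genes of the TGF-beta axis 11 were tested, 1 rose, 1 fell and 9 did not pass. Tgfbr1, the type I receptor, went from 730 and 652 to 1751 and 1537 and rose 2.17-fold (limma adjusted p = 0.0232). Bambi, a decoy receptor that dampens TGF-beta signals, went from 1699 and 1708 to 1125 and 1093 and fell 1.68-fold (limma adjusted p = 0.0278). Without saline 2 the adjusted p was 0.0541 for Tgfbr1 and 0.0578 for Bambi, and without saline 1 it was 0.0469 and 0.061. Tgfbr2, the type II receptor, named for its role, lay at 0.39 ± 0.13 log2 units and did not pass (limma adjusted p = 0.121). The carriers of latent TGF-beta Ltbp1, Ltbp2, Ltbp3 and Ltbp4 and the activating integrin Itgb8 were not well above background on any array.

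In the tryptophan and kynurenine list 11 of 16 genes were tested, 2 fell, 0 rose and 9 did not pass. Afmid, kynurenine formamidase, which acts right after IDO1, had intensities of 308 and 192 on the saline arrays and 50.1 and 41.0 on the liposome arrays. It fell by 2.56 ± 0.28 log2 units, or 5.88-fold (limma adjusted p = 0.022), and was well above background on 1 of 2 liposome arrays. With normexp its log2 fold change was -1.61, still a call. Kynu, kynureninase, went from 514 and 531 to 318 and 308 and fell 1.83-fold (limma adjusted p = 0.0216, 0.0534 without saline 1 and 0.053 without saline 2).

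Interferon gamma is the best known inducer of PD-L1 and IDO1, and its list also held CMTM genes, which stabilise PD-L1. Of its 9 genes 8 were tested, 1 fell, 0 rose and 7 did not pass. Irf1, a transcription factor that interferon gamma induces, went from 85118 and 81299 to 46007 and 50860 and fell 1.88-fold (limma adjusted p = 0.0308, 0.0735 without saline 1 and 0.0621 without saline 2). Another Irf1 probe gave a level 1.95-fold lower. The receptor chain Ifngr1 lay at 0.80 ± 0.20 log2 units (named for its role, limma adjusted p = 0.0803), and at 1.06 without saline 1. In that fit only the liposome pair gave a scatter within a group, so no call is read from it for Ifngr1.

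For the VEGF axis 5 of 9 genes were tested, 1 fell, 0 rose and 4 did not pass. Kdr, which encodes the main signalling receptor for VEGF-A, went from 4620 and 6476 to 2806 and 2609 and fell 2.22-fold (limma adjusted p = 0.0398, 0.0533 with median scaling and 0.053 without saline 2). Kdr is also a marker of endothelium. Of 10 stromal and endothelial markers 6 were tested and only Kdr passed, and the summed level of the other 5 was 9.51 on both saline arrays, 7.75 on liposome 1 and 7.09 on liposome 2. Pecam1, the brightest of these 5, weighs most in this sum and did not pass (log2 fold change -0.38, limma adjusted p = 0.0937). The dimmer Cdh5, Col1a1, Col1a2 and Acta2 lay at -0.37, -0.15, 0.20 and -0.05. The part of stromal and endothelial cells in the values of Kdr and Vegfa was not tested.

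Vegfa is a target of the hypoxia-inducible factors, and other genes of that kind moved both ways. Of 18 factors and targets 17 were tested, 1 rose, 2 fell and 14 did not pass. Adm, adrenomedullin, fell 2.27-fold and the stress gene Ddit4 1.75-fold (limma adjusted p = 0.0413 and 0.0361), while Bnip3, a mitophagy receptor gene, rose 1.83-fold (limma adjusted p = 0.0252). The adjusted p of Adm was 0.0531 with median scaling and 0.0621 without saline 2. That of Ddit4 was 0.0796 and that of Bnip3 0.06 without saline 1, and 0.0633 and 0.0602 without saline 2. Hif1a lay at -0.10 ± 0.16 log2 units (named for its role, limma adjusted p = 0.681). In the list of TIM family genes and TIM-3 partners 6 of 7 were tested and 0 passed by limma, the 6 with log2 fold changes from -0.63 to 0.04.

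**Figure D4:**
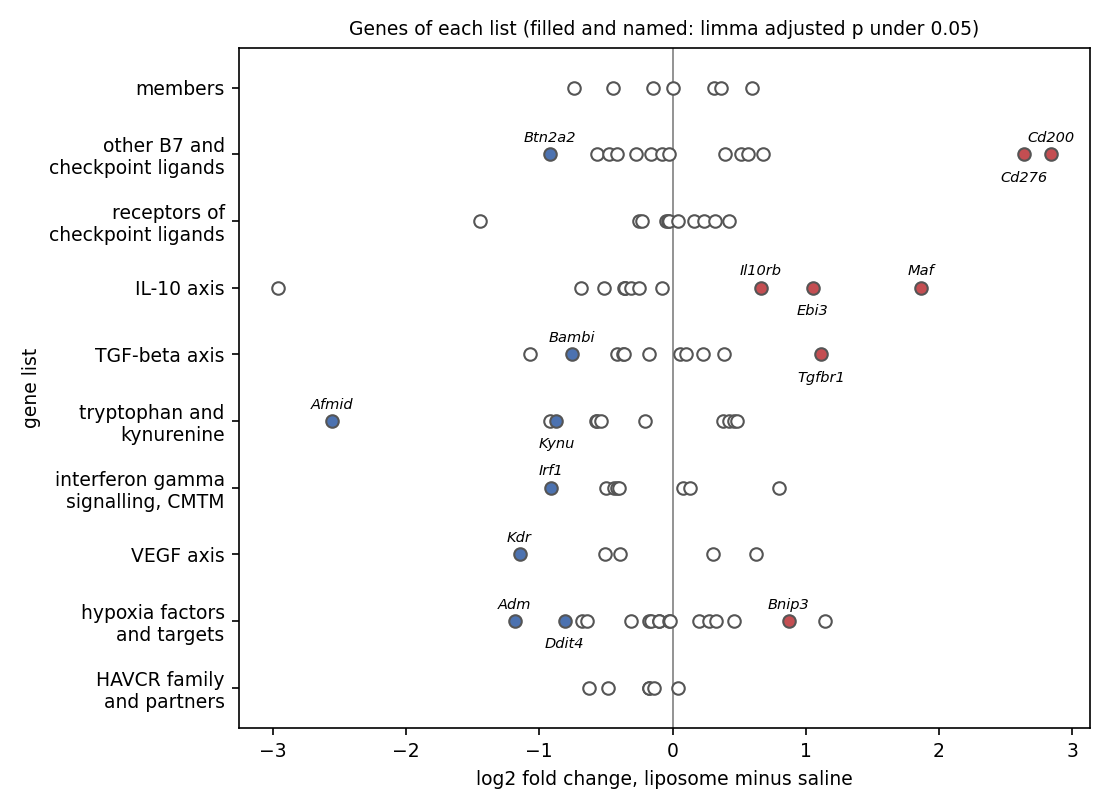
Each point is 1 tested gene, placed by its log2 fold change (liposome minus saline) in the row of its list; filled and named points passed the threshold of limma. None of the members is filled, while Cd200 and Cd276 stand furthest to the right and Afmid is the filled point furthest to the left.

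The promoters of Cd274 and Vegfa are shown because both genes are known targets of the signals in these lists. RefSeq upstream sequence of GRCr8 was found for 7 of the 9 genes. The 250 bases before each gene's start were searched on both strands for TTCNNNGAA (the interferon gamma-activated site), GAAA, any 2 bases and GAAA (the interferon-stimulated response element) and ACGTG (the core of the hypoxia response element), which 7.67%, 3.41% and 16.6% of 33469 promoters held. The Cd274 stretch (chr1:236529982-236530231, plus strand) held 0 matches and the Vegfa stretch (chr9:22452604-22452853, plus strand) 1, in capitals, on the minus strand for the response element, from 154 to 145 bases before the start. A match is not a proven site, and no match says only that these letters are not in this window. Of the other members, Cd80 held 1 match to the gamma-activated site and Havcr2 1 to the hypoxia core.

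Cd274, upstream: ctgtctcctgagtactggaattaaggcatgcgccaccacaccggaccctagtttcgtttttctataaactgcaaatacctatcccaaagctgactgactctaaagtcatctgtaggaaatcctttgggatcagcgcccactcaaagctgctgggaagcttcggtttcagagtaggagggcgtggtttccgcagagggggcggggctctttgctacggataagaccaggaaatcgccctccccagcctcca

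Vegfa, upstream: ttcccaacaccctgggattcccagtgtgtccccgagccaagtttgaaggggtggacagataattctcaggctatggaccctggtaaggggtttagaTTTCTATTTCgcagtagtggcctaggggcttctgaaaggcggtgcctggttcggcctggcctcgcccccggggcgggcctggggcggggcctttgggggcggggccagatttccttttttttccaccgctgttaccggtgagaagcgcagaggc

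Macrophage markers were present in the fraction. Of 14 macrophage markers 12 were tested, 1 was called higher, 5 fell and 6 did not pass. Their summed level was 103 to 104 in saline and 78.8 to 87.0 after liposomes, while 5 of the 12 lay higher and 7 lower. Cd68 and C1qb, which weigh most in this sum, went opposite ways, with log2 fold changes of 0.76 and -1.71. C1qa and C1qc lay at -1.73 and -2.09. The marker called higher was Mertk, which entered the test through the liposome arrays only. Its saline intensities of 43.5 and 29.8 were both too dim to count as measured, so the call is not read further. For Mertk only a bound is therefore given, a liposome mean at least 6.38-fold higher. Marco and Vsig4 were not well above background on any array. Of 10 tested neutrophil markers 7 fell, of 8 erythroid markers 5 and of 9 monocyte markers 4, and 0 of 10 natural killer cell markers passed by limma in the fit without a replicate block, although all 10 lay lower. Of 3 tested platelet markers Pf4 rose and Gp9 fell, and of 8 markers of mast cells, basophils and eosinophils 0 passed by limma. Summed levels in saline and after liposomes were 318 to 337 and 185 to 190 for neutrophils, 80.8 to 83.6 and 30.3 to 31.6 for erythroid cells, and 66.4 to 131 and 49.0 to 73.7 for natural killer cells. Tbx21, the brightest natural killer cell marker, weighs most in the last sum and had a log2 fold change of -0.06. The median over the 10 markers was -1.35. For platelets the summed levels were 0.643 to 0.70 and 1.34 to 1.43, and for mast cells, basophils and eosinophils 5.18 to 11.2 and 5.63 to 13.8. The higher platelet sum came from Pf4 alone, with a log2 fold change of 2.11. The platelet glycoprotein genes Gp1bb and Gp9 lay lower, at -0.58 and -0.99. The part of these shifts in the values of the 9 genes was not tested. Without control spots, 61.3% to 66.3% of the spots of an array were well above background and 0 were saturated. Across the genes tested, which are not independent replicates, the correlation of log2 values was 0.989 for the saline pair and 0.993 for the liposome pair, while pairs that crossed the groups gave 0.971 to 0.975.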

How the data were processed

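Each sample has 1 array, deposited as linear intensity per spot. Agilent Feature Extraction 10.7.3.1 made these values, per the submitters' processing notes, with spatial and multiplicative detrending and surrogates for dim spots switched on, per the file headers. Here control and outlier spots were left out, log2 processed intensities of a probe's spots were averaged, and the 75th percentile of each array was subtracted. A probe was kept where both arrays of a group had it well above background, in either group. Of 30367 probes 18006 took their symbol from RefSeq's genes (GRCr8) through their accession, 8186 kept the file's name and 4175 had none and were left out; the brightest probe stood for a gene.

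Log2 values of 12858 genes were fitted across all genes with limma 3.58.1 (lmFit and eBayes) in R 4.3.3 and adjusted by Benjamini-Hochberg at 0.05; the fit was tested on simulated data. A ± is the standard error from limma, n = 2 arrays per group. "At least" folds compare the brighter group's mean with the dimmer group's values or, where higher, the lowest signal well above background. The number of arrays limits the precision. Besides the 9 members, the text names the genes of each list past the threshold, at most 4 by size of change, and the 2 genes nearest in pattern to each member; members and lists were chosen with earlier results of these data known. Genes named for their role, weight in a summed level, dim signal or result under an alternative fall outside that rule. All 4 arrays lay on 1 slide. Alternatives were median and quantile scaling, normexp with an offset of 50 on the mean and background intensities, other filters and probe rules, a replicate block and leaving out each array. A gene of the interferon gamma list and a probe sequence are not reported here.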

Additional observations from a re-analysis of the deposited data

How the results depend on the processing

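With 2 arrays per group the count of calls moved far more than the folds. By limma 1143 of all genes passed (4181 at unadjusted p under 0.05), 1720 with normexp, 1816 with the replicate block and 0 without the filter on dim probes (3005 at unadjusted p under 0.05). With 1 array left out the count was 0 to 499: 499 without saline 1, 372 without saline 2 and 0 without liposome 1 or liposome 2 (smallest adjusted p 0.0558 and 0.0657), where the lone array is assumed to vary like the other group. With median scaling 852 of 1294 calls were higher. Of the members 0 of 7 passed (3 at unadjusted p under 0.05), 1 with normexp, 1 with the filter asking for all 4 arrays and 1 without accession-only names, an alternative added after seeing the data (Vegfa each time), and 2 with the replicate block (Vegfa and Cd274, adjusted p = 0.0409 and 0.0469). With any array left out, 0 passed. The block also called 8 of 10 natural killer cell markers and 5 of 11 B and plasma cell markers lower, against 0 of each without it. Other lists gained calls as well, such as tryptophan and kynurenine genes, with 4 lower against 2 without the block. The labels do not say what the shared title numbers mark, and deviations of same-numbered arrays correlated at 0.36 across genes. Cd274, Pdcd1lg2, Cd86, Il10, Havcr2 and Vegfa kept their direction under all 13 alternatives. Tgfb1 (0.007) turned sign, to -0.014 with quantile normalization, -0.122 without saline 2 and -0.08 without liposome 2, and ran from -0.122 to 0.136 with 1 array left out; the cause was not tested. Dim signal limits Cd80, Ido1 and the third Vegfa probe.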

Other observations

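Il12b, a subunit of the cytokines IL-12 and IL-23 that promote inflammatory T cells, was singled out after its values were seen. It had intensities of 171 and 43.3 on saline 1 and saline 2 and of 11.7 and 12.5 on the liposome arrays, where it was not well above background. The saline mean was at least 2.81-fold higher, a bound that was 1.39-fold without saline 1 and 5.67-fold without saline 2. The gene did not pass (limma adjusted p = 0.0745). With the replicate block Il12b was called lower, but it entered the test through the saline arrays only, so that call is not read further.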
